A study of Homo sapiens with 28 samples.

Results

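Distal 3′ untranslated region (3′ UTR) peaks are N6-methyladenosine (m6A) peaks whose highest point, the summit, lies in the 3′ UTR of a protein-coding gene and more than 200 bases past the stop codon. Members were chosen from the peak lists of 14 immunoprecipitated (IP) libraries, on chromosomes 1 to 22 and X. The summit had to fall in the 3′ UTR of the Ensembl canonical transcript on the strand of the peak, and not from 1000 bases before to 100 bases after any transcript start on either strand. Of 495694 peaks, 28852 (5.82%) met this rule, in 3323 genes, with 1673 to 2238 members in a library. Another 2844 peaks met the rule on the stop codon but lay near a transcript start and were left out, and 185 summits lay in the 3′ UTRs of 2 genes at once.

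RNA was taken from the chromatin fraction of cultured human cells, depleted of ribosomal RNA and enriched for m6A with an antibody (m6A MeRIP-seq on chromatin-associated RNA, caRNA). The groups were HepG2 WT (2 libraries), K562 WT (2), K562 Control (2), K562 RBFOX2 KD (2), NB4 Control (3) and NB4 RBFOX2 KD (3). HepG2 cells derive from a hepatoma. K562 cells derive from chronic myeloid leukaemia and have erythroid features, and NB4 cells derive from acute promyelocytic leukaemia and carry the PML-RARA fusion. KD cells carried a lentiviral short hairpin RNA against RBFOX2 and Control cells a non-targeting hairpin, both under puromycin selection, and the WT cells carried neither. Which RBFOX2 hairpin was used for these libraries is not given in the sources used here, and peak lists do not show how far RBFOX2 fell. Marker genes matched the labels, with peaks in 4 to 7 of 10 hepatocyte markers in HepG2 and 0 to 1 elsewhere, in 6 to 8 of 10 erythroid markers in K562 and 1 to 2 elsewhere, and in 6 to 8 of 10 promyelocyte markers in NB4 and 2 to 4 elsewhere.

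m6A is written on nascent RNA by the METTL3-METTL14 complex, at the middle A of a sequence known as DRACH, and is best known in mature mRNA for its concentration around the stop codon and in the 3′ UTR. The 3′ UTR also holds the signals for cleavage and polyadenylation and the sites through which microRNAs and RNA-binding proteins set the stability and location of an mRNA. RBFOX2 is an RNA-binding protein best known as a splicing regulator that reads UGCAUG. In caRNA, a 3′ UTR peak comes from transcripts that are made or held on chromatin and not from the whole mRNA pool of the cell. A peak list tells where IP reads stand above their local background. More RNA of a transcript and more m6A per molecule cannot be told apart in it.

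Short stretches of the RNA strand around the consensus site show what these peaks look like at base level. Each is 25 bases long, in the DNA letters of hg38, with a DRACH pentamer in capitals (GGACT in DNA is GGACU in RNA). The GGACT nearest the summit was taken where one lay within 75 bases, and the nearest other DRACH pentamer where none did, so these examples do not measure how often GGACT occurs. The first group comes from the strongest peaks present in every library.
TNK2: gccttaccatGGACTtgaatgggac
FAM104A: ttggaaatgaGGACTgtcttgggaa
FAM118A: catttcaggtGGACTttgcaaggac
SURF6: aggagccacgGGACAgaagacggtg
NFE2L1: ccatttagacGGACAgggtcctcac
DDX23: gtaactgcatAAACTgcagtagcat

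The stretches lie at chr3:195863644-195863668 on the minus strand (TNK2), chr17:73208086-73208110 on the minus strand (FAM104A), chr22:45340612-45340636 on the plus strand (FAM118A), chr9:133331484-133331508 on the minus strand (SURF6), chr17:48059847-48059871 on the plus strand (NFE2L1) and chr12:48830071-48830095 on the minus strand (DDX23). In TNK2 the centre of the pentamer was the summit base itself. In FAM104A and FAM118A it lay 10 and 18 bases downstream.

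The next stretches come from peaks of every library that were the farthest from their stop codons, shown because these sites lie many kb into long 3′ UTRs.
AAK1: tatttggaatGGACTgaatgaggag
CHST12: gggctgccttGGACCtcaggccgtt
CSNK2A1: gcactaaggaGGACAtaaccccaaa
EPN1: gtctttgaagGAACTtagcatagat

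They lie at chr2:69458260-69458284 on the minus strand, chr7:2446214-2446238 on the plus strand, chr20:473350-473374 on the minus strand and chr19:55705192-55705216 on the plus strand. The last stretches come from peaks found in every library of 1 line and in no library of the others, with SDC1 and CHST3 from HepG2, RIPOR3 and TNFRSF8 from K562 and AHRR from NB4.
SDC1: cgactgctttGGACCtaaatggcct
CHST3: ttatctgcagGGACTcaaagctgta
RIPOR3: ggtggatggtGGACTgtgaacctca
TNFRSF8: cagtccaaggGGACTggatcccagc
AHRR: tgtggtgtggGGACCctacaggagg

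Their positions are chr2:20202413-20202437 on the minus strand, chr10:72011059-72011083 on the plus strand, chr20:50586588-50586612 on the minus strand, chr1:12142763-12142787 on the plus strand and chr5:437752-437776 on the plus strand.

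GGACU was the pentamer most enriched at distal summits. The percent of windows within 75 bases of a summit that held it was compared with windows 300 bases to either side, on the RNA strand, and the difference is called the excess. GGACU was present in 31.1% of summit windows against 10.7% of 192497 windows of the same length tiled over all distal 3′ UTRs, and its excess was 18.3 percentage points ± 1.69 (SD over 14 libraries). Of the 18 DRACH pentamers, GGACA (14.5 points), AGACU (12.1), GAACU (10.2) and GGACC (8.68) followed, and UAACC was the lowest at -1.69. DRACH as a whole is a loose pattern, present in 93.6% of the tiled windows, and its excess was 6.19 points ± 0.930. The summit windows were also richer in G and C than 3′ UTRs at large, with 51.6% on average against 41.8% in tiled windows, or 45.8% in tiled windows of genes with a member.

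**Figure D1:**
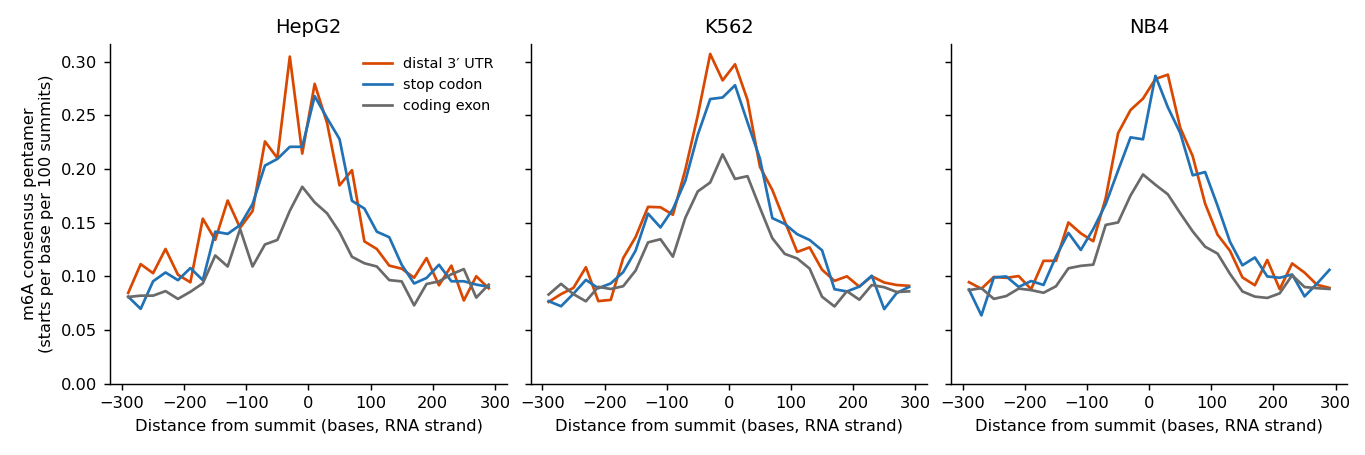
Starts of GGACU per base per 100 summits (vertical axis) against the distance from the summit in bases (horizontal axis), with a panel for each cell line and a line for each peak class. The distal curve reached 0.305 in HepG2, 0.307 in K562 and 0.288 in NB4, in bins centred 30 bases from the summit.

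The other motifs searched were not enriched at distal summits in the same way. AGAUG, which stood in 18% of tiled windows, had an excess of 3.11 points ± 1.16 (SD, n = 14). UGCAUG, the RBFOX sequence, stood in 4.51% of tiled windows and had an excess of -0.214 points ± 0.556. The lines differed in it, with -0.935 to -0.0469 points in the HepG2 and K562 libraries. In NB4 it was above 0 in every library but NB4 Control 1 (-0.235), and reached 0.938 in NB4 Control 3. The polyadenylation signal AAUAAA stood in 13.7% of tiled windows, the AU-rich element UAUUUAU in 4.20% and the Pumilio site UGUANAUA in 3.09%. All 3 were on average less frequent at summits than beside them (excess -3.52, -1.32 and -0.640 points). For UGUANAUA the excess was near 0 in HepG2 (-0.0299 and 0.0534 points). GGACU is itself a DRACH pentamer, AGAUG and UGCAUG can overlap in UG, UGUANAUA can overlap UAUUUAU in UA, and a match of letters says nothing of binding.

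Against peaks in the rest of the mRNA, distal 3′ UTR peaks ranked lower in their lists and carried more GGACU. The comparison classes were 37972 peaks within 200 bases of a stop codon and 63451 peaks in coding exons farther from it. Strength was taken as the percentile of the −log10 q value of a peak in its own list (100 for the strongest), because the lists differed in depth. The median percentile of distal peaks was 57.5 ± 1.52 (SD, n = 14 libraries), against 63.6 ± 1.79 for stop codon peaks and 67.4 ± 2.82 for coding exon peaks. Distal peaks were lower than both in 14 of 14 libraries (differences of -6.03 and -9.87; exact sign-flip permutation test, two-sided, p = 0.000122, adjusted p = 0.000163 over 4 tests, where 0.000122 is the smallest p that 14 libraries allow).

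The GGACU excess of 18.3 points at distal summits compared with 16.8 ± 1.43 at stop codon summits and 10.8 ± 2.07 at coding exon summits. It was higher than in coding exons in 14 of 14 libraries (7.54 points; exact sign-flip permutation test, p = 0.000122, adjusted p = 0.000163), and higher than at stop codons in 11 of 14 (1.47 points; p = 0.00208, adjusted p = 0.00208). Without the NB4 libraries the difference from stop codon peaks was 0.819 points (exact permutation p = 0.0625). For DRACH as a whole the order turned, with a distal minus stop codon difference of -0.703 points, below 0 in 14 of 14 libraries, and a distal minus coding exon difference of 1.60 points, above 0 in 14 of 14. Libraries of a line share their cells, so the 14 are not independent cultures, and each of these tests compares classes within a library.

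Distal peaks were also the narrowest class, and they had less AGAUG. The median width was 338 bases ± 46.6 (mean of the library medians, SD, n = 14), against 351 at stop codons and 400 in coding exons, and they were no wider in any library. The AGAUG excess was 3.11 points at distal summits, 4.48 at stop codons and 4.78 in coding exons, and distal peaks were below coding exon peaks in 14 of 14 libraries and below stop codon peaks in 13 (exact sign-flip permutation test, adjusted p = 0.000336 and 0.000488 over 22 tests). The median fold enrichment from the authors' peak caller was 6.84 on average at distal summits and 7.30 at stop codons, and distal peaks were lower in 12 of 14 libraries (exact permutation test, adjusted p = 0.000826). In coding exons it was 7.36, and distal peaks were lower in 8 of 14 libraries and higher in 6 (exact permutation test, adjusted p = 0.0812). G and C made up 52.2% of the windows at stop codons, slightly more than at distal summits in 14 of 14 libraries.

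Distal peaks lay mostly in the first part of the 3′ UTR. The distance from the stop codon, counted along the spliced transcript, ran from 201 to 32613 bases with a median of 775, and 99.8% of summits were in the last exon. In genes with a stop codon or coding exon peak in the same library, the number of distal peaks per kb of 3′ UTR was lower with every step outward, from a median of 0.195 over the 14 libraries between 200 and 500 bases to 0.160, 0.102, 0.0682 and 0.0552 beyond 500, 1000, 2000 and 4000 bases. No sharp edge stood at the limit of the rule: 3597 peaks lay 151 to 200 bases past a stop codon, with a median percentile of 65.2, and 2908 peaks lay at 201 to 250 bases, with 64.5. The median member stood 27.6% to 32.4% of the way along its 3′ UTR, depending on the library.

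**Figure D2:**
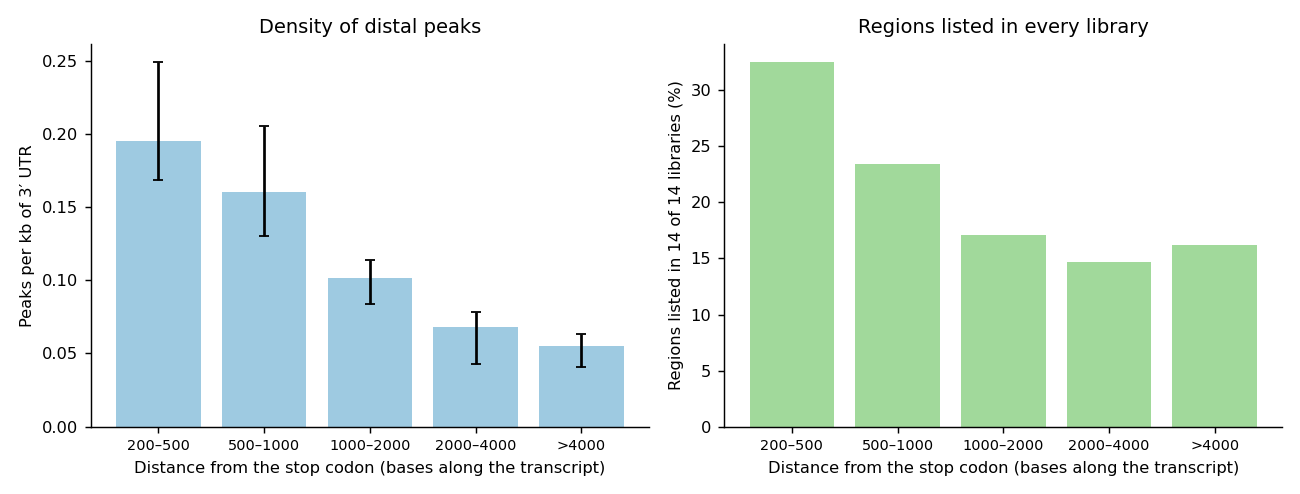
Distal 3′ UTR peaks per kb of 3′ UTR (vertical axis) and percent of distal regions found in all 14 libraries (vertical axes) by distance from the stop codon in bases (horizontal axes). Bars in the density panel are medians over the 14 libraries with lines from the lowest to the highest, from 0.195 per kb in the first bin to 0.0552 beyond 4000 bases, and the share of regions in every library went from 32.5% to 16.2%.

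Some distal peaks lay near transcript ends. Within 150 bases of any annotated transcript end lay 19.7% to 25.5% of members, against 15% of tiled windows in the same genes. For the end of the canonical transcript itself the share was 1.81% to 3.8%, against 4.54% of windows. A small number of members could belong to another product: 205 (0.711%) were in a coding exon of another gene on the strand, 28 of them in ZBED6, and 310 (1.07%) were in a coding exon of another transcript of the same gene.

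Most genes with a distal peak had no stop codon peak in the same library, and most genes with a stop codon peak had no distal peak. Even so, these classes occurred together more often than among eligible genes at large. In a library, 1354 to 1829 genes had a member, 255 to 408 had at least 2, and no gene had more than 10. Of genes with a distal peak, 21.8% to 34.2% also had a stop codon peak and 29% to 35.0% a coding exon peak in the same library. The first share was 30.9% to 34.2% in the 6 NB4 libraries and 21.8% to 24.6% in the HepG2 and K562 libraries. Of genes with a stop codon peak, 13.6% to 20.1% had a distal peak and 27.6% to 33.3% a coding exon peak. As background, the 1354 to 1829 genes with a member in a library came from 16651 genes with a 3′ UTR long enough to hold one. That is a lower share than among genes with a stop codon peak. Classes were set by the summit alone, so a distal peak can reach over the stop codon.

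Merging overlapping members by strand across libraries gave 4444 regions with a median width of 393 bases. Of these, 1084 (24.4%, in 1008 genes) had a peak in 14 of 14 libraries, against 8.92% of the regions made from all peaks, and 570 (12.8%) had one in a single library, against 21.9% of the regions made from all peaks. The share in all 14 was 31.9% for stop codon regions and 25.7% for coding exon regions, and the share in a single library 6.88% and 13.2%. Recurrence was lower farther out: 32.5% of regions from 200 to 500 bases past the stop codon were in all 14 libraries, 23.4% from 500 to 1000, 17.1% from 1000 to 2000, 14.7% from 2000 to 4000 and 16.2% beyond. In the same order of distance, the median percentile was 52.6, 46.7, 36.6, 33.6 and 33.3 over all regions of a bin, and 77.8, 77.2, 78.2, 73.8 and 79.1 over those in all 14 libraries.

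The 10 strongest regions of all 14 libraries had mean percentiles of 98.6 to 99.7. They were in EME2, a partner of the MUS81 endonuclease, DDX23, an RNA helicase of the U5 snRNP, NFE2L1, a transcription factor of proteasome genes, TNK2, a tyrosine kinase, CAMK2G, a subunit of the calcium/calmodulin-dependent kinase II, NDOR1, a reductase of iron-sulfur cluster assembly, SLC35E2B, FAM104A, FAM118A and SURF6, a nucleolar protein. The TNK2 region (chr3:195863396-195864195, exon 16 of 16) had its summit 525 bases past the stop codon, and its percentile ran from 96.8 to 99.97 with a mean of 99.2. The DDX23 region (chr12:48829499-48830803, exon 17 of 17) peaked 392 bases out, with a mean of 99.5 ± 0.475 (SD, n = 14). The CAMK2G region (chr10:73812648-73814356, exon 23 of 23) peaked 563 bases out, with a mean of 99.1 ± 0.547.

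Several of these regions share their place with other transcripts. The EME2 region was 4627 bases long, faced exons of SPSB3 on the opposite strand and had opposite-strand peaks in all 14 libraries. The NDOR1 region overlapped coding exons of ENSG00000284976 on the same strand and had opposite-strand peaks in 9 libraries, while DDX23 and NFE2L1 had them in 8. FAM104A faced COG1, with no opposite-strand peak. SLC35E2B has a near-identical paralog, so its reads may be shared between the copies.

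**Figure D3:**
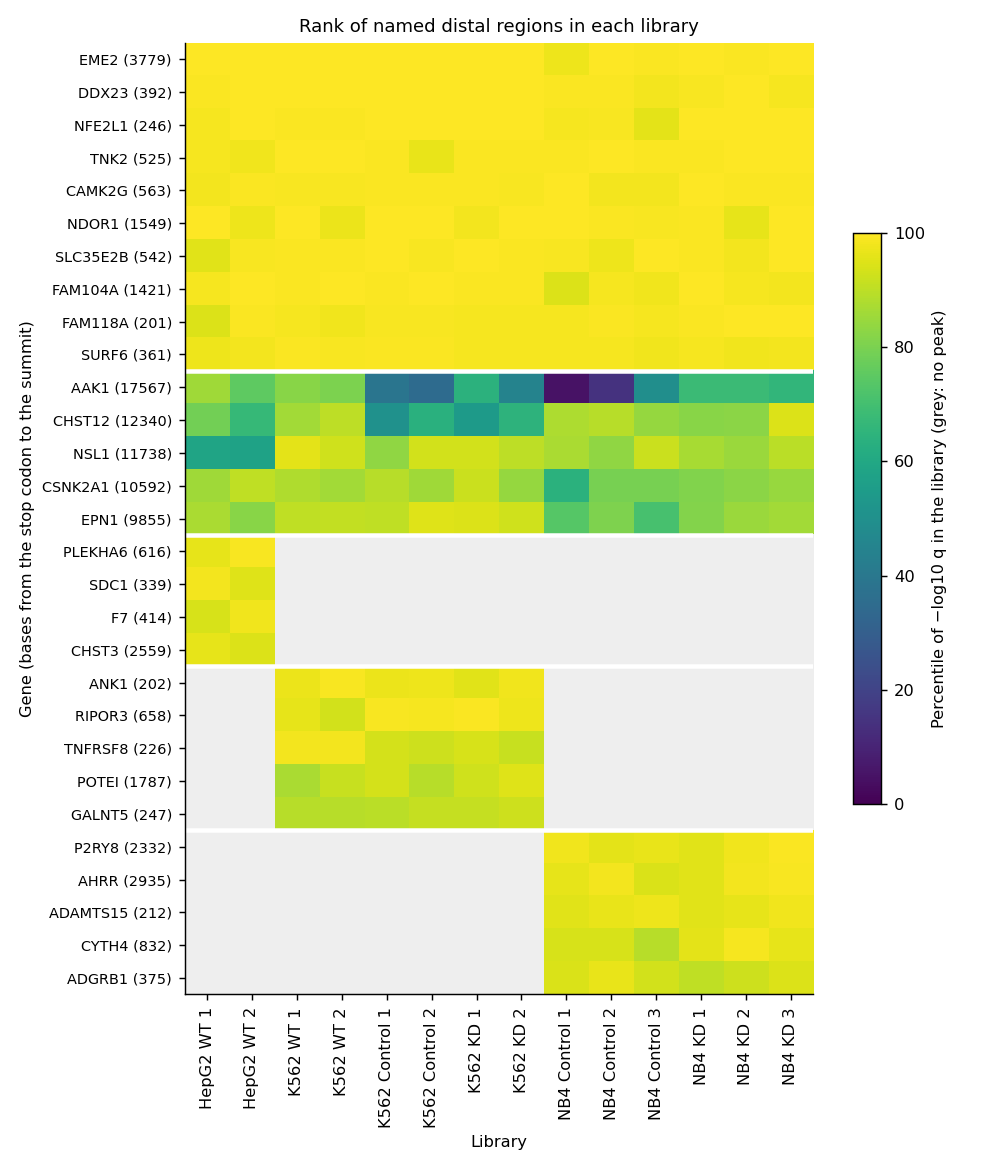
Percentile of −log10 q in each of the 14 libraries (columns) for the named distal 3′ UTR regions (rows), in grey where a library had no peak, and with the bases from stop codon to summit after each gene name. The strongest recurrent regions lay above a percentile of 94 in every library, and the regions found only in 1 line were grey in all libraries of the others.

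Some 3′ UTRs held several regions that every library shared. RPAP2, a phosphatase of the RNA polymerase II tail with a 3′ UTR of 15045 bases, had 4 (542, 1548, 4504 and 7179 bases past the stop codon), with mean percentiles of 54.2, 45.5, 66.2 and 41.9. KNOP1, a nucleolar protein, had 3, with means of 94.2 at 209 bases, 83.9 at 2028 and 69.9 at 3538. ZBTB40 had 3 with means of 80.3 to 82.6, ZBED6 had 3 with means of 66.4 to 88.8 and ZFP41 had 3 with means of 42.2 to 68.7. All 3 ZBED6 regions overlapped exons of its host gene ZC3H11A, 2 of them coding, and 2 of the KNOP1 regions faced VPS35L, so these cannot be given to 1 gene with certainty. 2 of the ZFP41 regions overlapped ENSG00000264668.

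The recurrent region farthest out was in AAK1, an endocytic adaptor kinase (chr2:69458168-69458507, exon 22 of 22), 17567 bases past the stop codon in a 3′ UTR of 17872. Its percentile was 85.7 and 75.4 in HepG2, 82.1 and 80.3 in K562 WT, 39.0 and 35.1 in K562 Control, 64.3 and 44.6 in K562 KD, 5.05, 14.6 and 49.5 in NB4 Control and 68.0, 68.0 and 65.8 in NB4 KD. It was highest in HepG2 and K562 WT and lowest in NB4 Control. CHST12, a chondroitin sulfotransferase (12340 bases, mean 76.9 ± 14.1), NSL1, a kinetochore protein (11738 bases, 84.9 ± 12.1), CSNK2A1, the catalytic subunit of casein kinase 2 (10592 bases, 83.7 ± 6.89) and EPN1, an endocytic adaptor (9855 bases, 85.8 ± 7.46; SD, n = 14 for each), followed.

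Genes that act on 3′ UTRs were taken by list and set beside all genes that could hold a member. Of 16651 genes with a 3′ UTR long enough to hold a member, 20% had one and 6.05% had a region in all 14 libraries. The share with a member was 50% for microRNA effectors and 11.8% for cleavage and polyadenylation. It was 22.7% for deadenylation and decay and 26.1% for 3′ UTR-binding proteins, both near the 20%. MicroRNA effectors had members in 6 of 12 genes and recurrent regions in AGO4, TNRC6A and DGCR8. DGCR8, the RNA-binding partner of DROSHA, stood at percentiles of 93.4 to 98.6, and AGO4 at 58.7 to 88.8. TNRC6A, the scaffold of the silencing complex, stood at 74.1 to 84.7 in HepG2 and K562 and at 14.3 to 58.0 in NB4, so the NB4 libraries lay below all others.

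Deadenylation and decay genes had members in 5 of 22, and 4 of these (CNOT2, CNOT9, PAN2 and PAN3) had a recurrent region. CNOT2, of the CCR4-NOT deadenylase, ranged from 66.9 in HepG2 to 98.1 in NB4. 3′ UTR-binding proteins had members in 6 of 23, with recurrent regions in ZFP36L2, which binds AU-rich elements (73.7 to 97.9), and TIAL1, a stress granule protein (33.7 to 91.3). Cleavage and polyadenylation genes had members in 2 of 17, one of them CPSF7, a subunit of cleavage factor I, at 76.4 to 92.7.

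The genes of the m6A machinery itself were taken by role. Writers had members in 3 of 9 genes (METTL14, RBM15B, METTL16) and none in all 14 libraries. The METTL14 region 537 bases past the stop codon was listed in all 6 K562 libraries, at 68.5 to 91.6, and in 1 HepG2 and 1 NB4 library. Readers and erasers had members in 5 of 12 genes, with IGF2BP2, an m6A reader, in all 14 libraries at 22.1 to 66.9. The longer 3′ UTRs of genes with members (median 2077 bases, against 1342 in all eligible genes) bear on all these counts.

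Most distal regions found in every library of a line were also found in the other lines, as were most regions made from all peaks. Of 1954 regions in both HepG2 libraries, 84.3% had a peak in some K562 library and 81.0% in some NB4 library. Of 2050 regions in all 6 K562 libraries, 87.3% had a peak in some NB4 library and 75.2% in some HepG2 library. Of 1686 regions in all 6 NB4 libraries, 89.5% had a peak in some K562 library and 77.8% in some HepG2 library. For regions made from all peaks the shares, in the same order, were 73.7% and 67.2%, 68.9% and 55.5%, and 79.4% and 61.6%. For stop codon regions they were 86.7% and 83.3%, 89.3% and 79.8%, and 90.4% and 81.1%, each above the distal share. The lines have unequal numbers of libraries, which sets how easily a region is found in any of them.

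Regions confined to the libraries of a single line numbered 209 for HepG2 (4.70% of distal regions, against 4.60% of all regions), 150 for K562 (3.38%, against 6.33%) and 113 for NB4 (2.54%, against 3.38%). The HepG2 share stood near the background, and the K562 and NB4 shares were below it. The same held for stop codon and coding exon regions, so this was not particular to distal regions. Their shares were 4.93% and 4.26% for HepG2, 3.33% and 3.56% for K562, and 2.91% and 2.12% for NB4. Among the strongest HepG2 regions were those in PLEKHA6, SDC1, the heparan sulfate proteoglycan syndecan-1, F7, coagulation factor VII, and CHST3, a chondroitin sulfotransferase. F7 stood at percentiles of 94.0 and 98 and SDC1 at 98.4 and 94.9, and neither had a peak in the other 12 libraries.

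The strongest K562 regions were in ANK1, the erythrocyte ankyrin (95.6 to 99.1), RIPOR3 (93.3 to 99.3, with opposite-strand peaks in 6 libraries), TNFRSF8, the CD30 receptor (91.6 to 98.4), POTEI, which has near-identical paralogs (87.3 to 95), and GALNT5, a glycosyltransferase (89.1 to 92.4). The strongest NB4 regions were in P2RY8, a G protein-coupled receptor in the pseudoautosomal region (95.3 to 99.4), AHRR, the aryl hydrocarbon receptor repressor (94.1 to 99), ADAMTS15, a metalloprotease (95.4 to 97.8), CYTH4, an ARF exchange factor (89.1 to 98.6) and ADGRB1, an adhesion receptor (90.5 to 96.6). The AHRR region is also in exons of PDCD6-AHRR. Both leukaemia lines, and not HepG2, had 188 further regions (4.23% of distal regions, against 2.13% of all regions, 3.99% of stop codon regions and 3.03% of coding exon regions), among them that of SPI1, the myeloid transcription factor PU.1, at 50.3 to 88.6 in K562 and 56 to 80.4 in NB4. A line without a peak may lack the transcript or its methylation, which cannot be told apart here.

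Distal 3′ UTRs took a smaller share of the peaks in K562 WT than in HepG2 WT. The share was 7.39% and 6.84% in HepG2 and 4.86% and 4.92% in K562, so the groups did not overlap (-2.23 percentage points; exact permutation test, p = 0.333, the smallest p that 2 against 2 libraries allow). As a share of mRNA exon peaks (distal, stop codon and coding exon peaks together), the values were 21.4% and 21.1% in HepG2 and 21.4% and 21.4% in K562, a difference of 0.172 points with the same smallest p. The mean number of distal peaks was 1773 in HepG2 and 2137 in K562, in lists of 24997 and 43700 peaks on average. Stop codon peaks numbered 2333 and 2539 in HepG2 and 2967 and 2980 in K562 WT. Coding exon peaks numbered 3827 and 4460 in HepG2 and 4885 and 4864 in K562 WT. Their shares of all peaks were thus also smaller in the longer K562 WT lists, so this was not particular to distal peaks.

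Of 3077 distal regions in these 4 libraries, 719 (23.4%) were in both K562 WT libraries and no HepG2 library, against 38.0% of all regions, and 344 (11.2%) were in both HepG2 and no K562 WT library, against 10.0%. Distal regions were thus below the background among K562 WT regions and near it among HepG2 regions. Median distance from the stop codon was 694 and 716.5 bases in HepG2 and 752 and 748.5 in K562 WT, and the GGACU excess was 17.6 and 15.8 points in HepG2 and 20.9 and 20.9 in K562 WT. Neither pair of groups overlapped, and no test of 2 against 2 libraries can pass 0.05.

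NB4 Control and K562 Control differed in the share of mRNA exon peaks more than in the share of all peaks. The share of all peaks was 6.50%, 6.24% and 6.06% in NB4 Control and 5.91% and 5.80% in K562 Control (0.410 points; exact permutation test, p = 0.2). The share of mRNA exon peaks was 21.3%, 21.3% and 21.4% in NB4 Control and 24.1% and 22.7% in K562 Control (-2.08 points; exact permutation p = 0.1, the smallest that 3 against 2 libraries allow). Of 3448 distal regions, 514 (14.9%) were in both K562 Control and no NB4 Control library, against 20.5% of all regions, and 279 (8.09%) the reverse, against 10.1%. These Control libraries also serve in the KD comparisons that follow.

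On RBFOX2 KD, distal 3′ UTR peaks were a slightly smaller share of all peaks and a slightly larger share of mRNA exon peaks, and neither difference passed adjustment. The share of all peaks was 5.91% and 5.80% in K562 Control and 5.80% and 5.81% in K562 KD. In NB4 it was 6.50%, 6.24% and 6.06% in Control and 5.39%, 5.59% and 5.83% in KD. All 3 NB4 KD libraries lay below all 3 Control libraries, while K562 overlapped. The lower share in NB4 was not particular to distal peaks. The NB4 lists held 31603 peaks on average in Control and 38009 in KD. Stop codon peaks numbered 2691 and 2778 and coding exon peaks 4605 and 4757, so the shares of these classes in all peaks were lower as well.

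The mean difference over both lines was -0.358 percentage points, with 5 of 5 KD libraries below their Control mean (exact permutation test within line, two-sided, p = 0.0333, adjusted p = 0.0833 over 5 tests). By line it was -0.0510 in K562 (exact p = 0.667) and -0.665 in NB4 (exact p = 0.1, the smallest that 3 against 3 libraries allow). K562 and NB4 differed in this by 0.614 points (exact permutation test of the difference, p = 0.0833, adjusted p = 0.139). Weighting for G and C content took the mean difference to -0.204 points (exact permutation p = 0.133), and it was -0.331, -0.355 and -0.301 points without K562 Control 1, K562 KD 1 and NB4 Control 1 (exact permutation p = 0.0667, 0.05 and 0.0667).

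As a share of mRNA exon peaks, distal peaks were 24.1% and 22.7% in K562 Control and 24.1% and 23.9% in K562 KD, and 21.3%, 21.3% and 21.4% in NB4 Control and 21.8%, 22.1% and 22.1% in NB4 KD. The NB4 groups did not overlap. The mean difference was 0.650 points, with 5 of 5 KD libraries above their Control mean (exact permutation p = 0.0333, adjusted p = 0.0833). It was 0.305 points without K562 Control 2 (exact permutation p = 0.0833) and 0.996 points without K562 Control 1, the only library whose removal left p under 0.05. With lists cut to equal size it was 0.366 points (exact permutation p = 0.683).

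**Figure D4:**
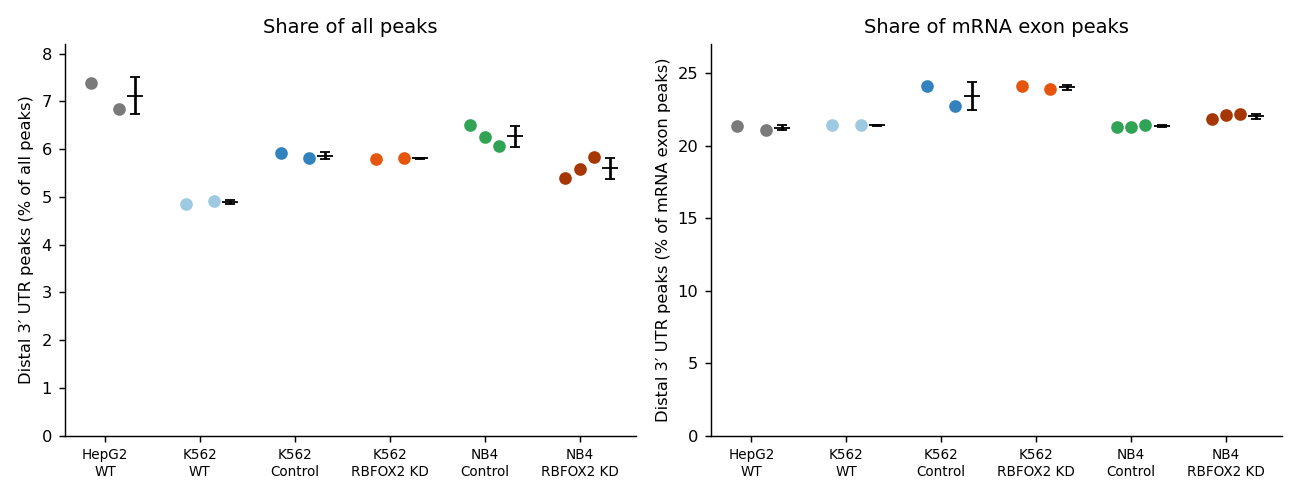
Distal 3′ UTR peaks as a percent of all peaks and as a percent of mRNA exon peaks (vertical axes) in each of the 14 libraries by group, with bars for the group mean and SD. HepG2 WT had the highest share of all peaks (7.39% and 6.84%) and K562 WT the lowest (4.86% and 4.92%).

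Depth moved with the NB4 groups. The depth recovered from the peak caller's values was 13.5 M reads on average in NB4 Control and 19.1 M in NB4 KD, and the lists held 31603 and 38009 peaks. Distal peaks numbered 1917, 1992 and 2025 in NB4 Control and 2140, 2104 and 2138 in NB4 KD. In K562 the depth was 17.2 M reads in Control and 14.5 M in KD. Rescaling to a matched depth removed few peaks and left lists of 29511 to 33288 in NB4 Control and 36482 to 39219 in NB4 KD, so the part of depth in the NB4 differences was not tested.

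G and C content and AU-rich motifs moved with the NB4 groups as well. G and C made up 53.7%, 53.8% and 53.3% of distal windows in NB4 Control and 51.6%, 51.7% and 51.7% in NB4 KD, and the same direction was seen in NB4 at stop codons (54.0% to 52.5%) and in coding exons (52.2% to 51.2%). AAUAAA was in 3.55% of distal summit windows in NB4 Control and 5.41% in KD, UAUUUAU in 0.522% and 0.909%, and UGUANAUA in 0.521% and 0.847%. For each, the NB4 groups did not overlap (exact permutation p = 0.1, adjusted p = 0.169 over 22 tests). In K562 the G and C content was 50.4% in Control and 50.7% in KD. Over both lines UAUUUAU was higher by 0.342 points (exact permutation p = 0.0167, the smallest possible, adjusted p = 0.367).

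The distance from the stop codon differed on KD in opposite directions in the lines, a difference that did not pass adjustment. Median distance was 769.5 and 804 bases in K562 Control and 764.5 and 760.5 in K562 KD, and 790, 747.5 and 792 in NB4 Control and 811.5, 826 and 819 in NB4 KD. The KD libraries lay below the Control libraries in K562 and above them in NB4. The log2 difference was -0.0448 in K562 (exact p = 0.333) and 0.0771 in NB4 (exact p = 0.1), each the smallest p its design allows, and K562 minus NB4 was -0.122 (exact permutation test of the difference, p = 0.0167, the smallest possible, adjusted p = 0.0833 over 5 tests). With lists cut to equal size it was -0.0468 (exact permutation p = 0.283), and with members more than 400 bases from the stop codon -0.0823 (exact permutation p = 0.117). Over both lines together the distance differed by 0.0161 on the log2 scale (exact permutation p = 0.583, adjusted p = 0.729).

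**Figure D5:**
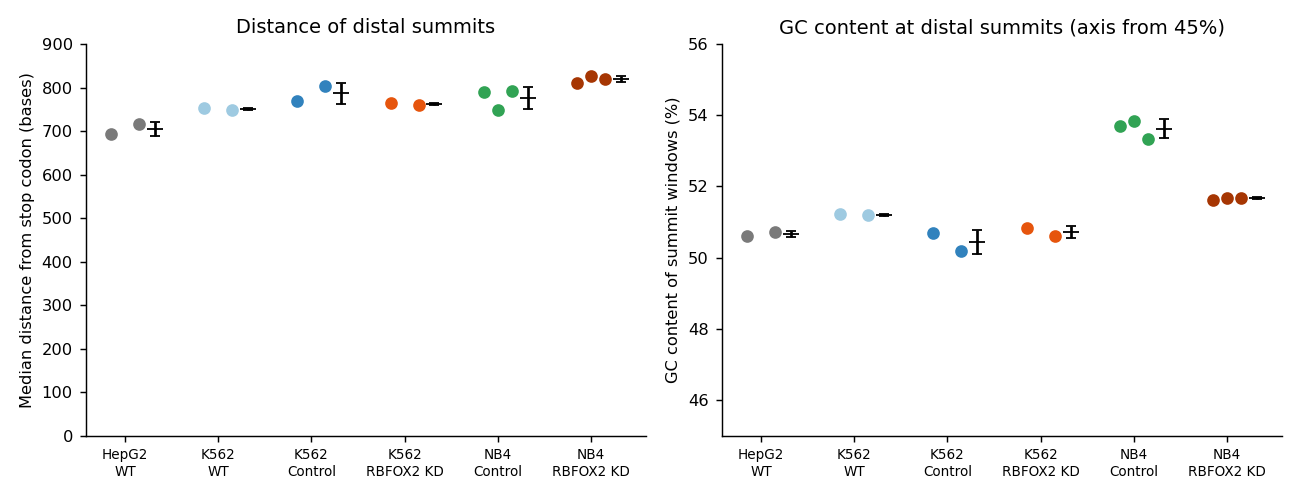
Median distance of distal 3′ UTR peaks from the stop codon in bases and mean G and C content of their summit windows in percent (vertical axes, the second from 45%), per library and group, with bars for the group mean and SD. In NB4 the 3 KD libraries had longer distances (811.5 to 826 bases) and lower G and C content (51.6% to 51.7%) than the 3 Control libraries.

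Regions that both K562 WT libraries held served as a reference outside the comparison. Of these 2061 distal regions, K562 Control recovered 87.0% and 88.1% and K562 KD 89.2% and 83.2%, while NB4 Control recovered 63.2%, 64.6% and 65.9% and NB4 KD 69.6%, 68.1% and 69.7%. K562 overlapped and NB4 did not. In NB4, recovery of the stop codon regions was 71.6% on average in Control and 74.5% in KD (exact permutation p = 0.2), and of the coding exon regions 67.0% and 70.8% (exact permutation p = 0.1), so the means of these classes differed in the same direction. For distal regions over both lines the mean difference was 1.60 points (exact permutation p = 0.433, adjusted p = 0.722). The GGACU excess was 19.1 and 15 points in K562 Control and 18.9 and 19.1 in KD, and 18.7, 17.3 and 18.9 in NB4 Control and 18.7, 18.7 and 16.7 in KD (0.800 points over both lines; exact permutation p = 0.8). K562 Control 2 had the lowest excess and the widest distal peaks of all libraries (median 429 bases), and without it the GGACU difference was -0.236 points. Over both lines the UGCAUG excess differed on KD by -0.196 points (exact permutation p = 0.4, adjusted p = 0.960 over 22 tests). The AGAUG excess differed by 0.0459 points (exact permutation p = 0.9, adjusted p = 0.960).

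Few distal regions were present in all Control and no KD libraries of a line, or the reverse. In K562, 40 of 2882 regions were lost on KD (1.39%, against 1.74% of all regions) and 18 gained (0.625%, against 1.76%). In NB4, 14 of 2996 were lost (0.467%, against 0.610%) and 79 gained (2.64%, against 3.68%). All 4 shares were below the background with the main settings. With summit windows the NB4 lost share was above it (1.32%, against 0.961% of all regions). It was also above without NB4 Control 2 (1.2%, against 1.16%). No gene was called in the same direction in both lines, and 2, CMKLR1 and PEAK1, named here after their values were seen, had a region lost in K562 and one gained in NB4. The overlap between the lines over all regions was not computed. With so few distal regions called in a line, nothing is read from these counts. In NB4 the gained share was 1.30% for stop codon regions and 1.55% for coding exon regions, and the lost share 0.727% and 0.547%. In K562 the lost shares of these classes were 1.61% and 1.51%, and the gained shares 0.720% and 0.479%. The counts rest on few libraries. Without Control 1, Control 2, KD 1 and KD 2 of K562 in turn, 238, 115, 171 and 67 distal regions were lost (8.65%, 4.31%, 6.21% and 2.41%, against 14%, 5.83%, 6.2% and 2.78% of all regions) and 66, 77, 56 and 113 gained (2.03% to 4.06%, against 4.64% to 7.3%). In NB4, 21 to 35 were lost (0.726% to 1.2%, against 0.874% to 1.42%) and 94 to 139 gained (3.24% to 4.74%, against 4.61% to 7.19%) without a library.

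The lost K562 regions of highest rank were in ZSCAN12, a zinc finger protein (55.7 and 58.4 in Control), METTL14, the partner of METTL3 (50.1 and 30.6) and CTC1, of the telomere CST complex (33.2 and 35.1). The METTL14 region (chr4:118710948-118711236, exon 11) lay 788 bases past the stop codon and was also in K562 WT 1 at 20.5, but not in K562 WT 2. The ZSCAN12 region was in K562 WT 1 at 32.6 and not in K562 WT 2, and the CTC1 region was in neither. The neighbouring METTL14 region at 537 bases stayed in both KD libraries, at 84.5 and 68.5. CTC1 had a peak there in 5 NB4 libraries, including all 3 KD.
METTL14: atacattttgGGACTaaaatacttg

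This stretch of the lost METTL14 region is at chr4:118711126-118711150 on the plus strand. The gained K562 regions were in SP100, a nuclear body protein (30.4 and 49.7 in KD), TCAF1 (19.1 and 25.8) and DACT3, a regulator of Wnt signalling (23 and 21.4). SP100 and TCAF1 also had peaks in both K562 WT libraries, TCAF1 at 87.8 and 81.6, and DACT3 had one in the KD libraries alone.

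The lost NB4 regions were in BDH1, a ketone body dehydrogenase (45, 56.7 and 39.0 in Control), ALKBH5, an m6A demethylase (32.2, 58.6 and 41.1), and LASP1NB (31.7, 50.4 and 46.9), each with no peak in any other library. The ALKBH5 region (chr17:18209650-18209812, exon 4) lay 1280 bases past the stop codon. The gained NB4 regions were in ZNF493, a zinc finger protein (65.3, 64.7 and 64.1 in KD), FBXO22, an F-box protein (76.0, 77.3 and 35.7) and RICTOR, a subunit of mTORC2 (53.4, 62.4 and 50.8). ZNF493 and RICTOR had peaks in all 8 HepG2 and K562 libraries, so NB4 Control was the only group without them. None of these 12 regions reached a percentile of 80 in the Control or KD libraries of the line where it was lost or gained.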

How the data were processed

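Chromatin-associated RNA MeRIP-seq was analysed from 14 IP peak lists in 6 groups and 3 cell lines. The 14 input libraries are not analysed here. Per the methods and the submitters' processing notes, the authors trimmed reads (Trimmomatic 0.39), aligned them to hg38 with GENCODE release 29 (HISAT2 2.1.0), split them by strand (SAMtools 1.9) and called peaks per library and strand with MACS2 (q below 0.01, extension of 150 bases, genome size 1.3e+08, up to 5 duplicates kept). Whether the input served as the peak caller's background in these lists is not given in the sources used here. The deposited lists hold a score, a fold enrichment (a ratio at the summit over the local background), and −log10 p and −log10 q values as the authors' peak caller wrote them. The smallest −log10 q was 2.0. Fold, −log10 p and −log10 q were used as deposited, and the score was not.

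Peaks were assigned with GENCODE release 44 on hg38, and 20287 peaks outside chromosomes 1 to 22 and X were left out. Depth was recovered by solving the deposited fold and −log10 p for whole reads: 10.8 to 30.0 M effective reads per library. Pileups were whole (within 0.05) at 100% of summits in 11 libraries and at 9.28% to 10.3% in NB4 Control 3 and both HepG2 libraries, whose depth is approximate. This number limits the precision, and no counts per peak were tested. Library values were compared by exact permutation tests, two-sided, with Benjamini-Hochberg adjustment (Python 3.11.15, numpy 2.4.6, pandas 2.3.3, scipy 1.17.1), tested on simulated data. The labels do not say that replicates are separate cultures, so p-values measure only the spread between these libraries, which may be technical. No pair of libraries was a duplicate (at most 0.443% identical intervals).

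Genes were named by rule: the 10 strongest regions of all 14 libraries, the 5 genes with most such regions, the 5 such regions farthest from the stop codon, the 5 strongest regions found only in each line, the 3 strongest lost and gained regions in each KD comparison, and up to 4 genes with members in each gene list (writers, readers and erasers, cleavage and polyadenylation, microRNA effectors, deadenylation and decay, 3′ UTR binding). One region that the rule would name is not reported here. The members, lists and tests were chosen with earlier results of these data known. Alternatives were a stricter q, lists of equal size, matched depth, a limit of 400 bases, distance along the genome, any protein-coding transcript, summit windows, narrower motif windows, weighting by G and C content, a replicate block and leaving out each library.

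Same-numbered Control and KD libraries did not deviate together (correlations of their deviations of -0.0964 to -0.0652), so the replicate numbers were not taken as pairs. In K562 same-numbered and other pairs gave -0.0694 and 0.0694, the same number with opposite signs. In groups of 2 or 3 libraries such values cannot show whether libraries share a culture or batch.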

Additional observations from a re-analysis of the deposited data

Results flagged for a closer look

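The median distance of distal 3′ UTR peaks from the stop codon was picked out because its KD difference went in opposite directions in the lines: -0.0448 on the log2 scale in K562 and 0.0771 in NB4. The K562 change minus the NB4 change was -0.122 (exact permutation test, p = 0.0167, the smallest possible, adjusted p = 0.0833 over 5 tests), so it did not pass adjustment. Without K562 KD 2 it was -0.118 (exact permutation p = 0.0667), and leaving out each of the other libraries in turn kept p at 0.0333 or below. With lists cut to equal size it was -0.0468 (exact permutation p = 0.283). In the same NB4 libraries depth was 13.5 M reads in Control and 19.1 M in KD, and G and C content 53.6% and 51.7%. Their part in the difference was not tested.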

How the results depend on the processing

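Of 171 values under alternative settings, 121 kept their direction and their side of the threshold or stayed near the main count. This total includes 7 values for K562 WT against HepG2 WT and 8 for NB4 Control against K562 Control. Their smallest possible p is 0.333 and 0.1, so they could not change side of 0.05. The stricter q kept 36506 of 36844 peaks in K562 Control 1 and 29165 of 29511 in NB4 Control 1, so it could change little. With a replicate block the smallest possible p is 0.0625, so no result can fall below 0.05 under it. It gave -0.358 points for the share of all peaks (exact permutation p = 0.125). For the share of mRNA exon peaks it gave 0.650 (exact permutation p = 0.0625). The other KD results were above 0.05 without the block, so it could not change their calls. The replicate numbers were not taken as pairs in the main tests.

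The share of all peaks on KD was -0.474 points with any protein-coding transcript and -0.204 with weighting by G and C content, neither below 0.05 by the exact permutation test. Leaving out a library gave -0.414 to -0.301, with p at or above 0.05 without K562 Control 1, K562 KD 1 or NB4 Control 1. The share of mRNA exon peaks was 0.589 with −log10 q of at least 5, 0.366 with equal lists, 0.619 beyond 400 bases, 0.619 with distance along the genome, 0.683 with any protein-coding transcript and 0.823 weighted by G and C content, none below 0.05, and 0.305 to 0.996 without a library, below 0.05 only without K562 Control 1. The median distance turned to -0.00243 with equal lists and -0.00214 beyond 400 bases (0.000297 to 0.0319 without a library). Recovery turned to -1.17 points with equal lists, and was 0.0809 to 3.11 without a library, the highest without K562 KD 2 (exact permutation p = 0.0167). The GGACU difference on KD ran from -0.236 to 1.84. Distal against stop codon peaks gave -0.703 with DRACH and 0.819 without the NB4 libraries.

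Lost and gained counts in K562 were 61 and 69 with summit windows (1.79% and 2.02%, against 2.06% and 2.59% of all regions). They were 67 to 238 and 56 to 113 without a library. The shares without a library stand with the main counts above. In NB4, 48 were lost with summit windows (1.32%, against 0.961% of all regions). With equal lists 40 were lost (1.5%, against 1.53%) and 25 gained (0.936%, against 1.93%). Without a library, 21 to 35 were lost and 94 to 139 gained. The gained count was 139 without NB4 Control 3 and 119 without NB4 KD 2. The lost count was over 1.5 times the main 14 on leaving out any library but NB4 KD 3. Regions of all 14 libraries numbered 471 with summit windows and 1073 to 1132 without a library. The line comparisons kept their direction in all alternatives (-2.50 to -1.95 and 0.296 to 0.512 without a library). The cause of these changes was not tested. Weighting by G and C content, the runs without a line, the 400 base limit for K562 WT against HepG2 WT, and matched depth for results other than the shares on KD were chosen after seeing the data. Groups of 2 or 3 libraries limit every KD comparison.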
